A study of Mus musculus with 24 samples.

Results

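At 939 of the 9629 H3K4me3 peaks called in mouse retina at postnatal day 17 (P17), no P17 H3K27ac peak touched the interval. These 939 regions (9.75%, 95% Wilson interval 9.18 to 10.4) were chosen by a single rule: a P17 H3K4me3 peak that shares not even 1 bp with any of the 29909 P17 H3K27ac peaks. They are called H3K4me3-only peaks here, which means only that these lists hold no second mark at them. The other 8690 P17 H3K4me3 peaks, with H3K27ac, served for comparison.

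The study measured SOX8, SOX9 and both histone marks by CUT&RUN, in which an antibody brings a nuclease to a chromatin-bound protein and the released DNA is sequenced. The 24 libraries came from wild-type retinas at P2 and P17, with no other allele or agent named in the labels, and 600000 nuclei went into each reaction. Each age had 2 libraries each for H3K4me3, H3K27ac, SOX9 and nonspecific IgG, and 4 for SOX8. The 8 deposited lists, 1 for each target and age, hold 349901 peaks without heights, replicate names or read counts, so the depth behind each peak is unknown and no replicate error could be computed. Intervals below cover counting error over peaks only, and peaks are not replicates. No IgG list was analysed here.

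H3K4me3 is written by the SET1/MLL family of methyltransferases at the starts of genes, most often where the DNA is rich in CpG dinucleotides. H3K27ac is written by the acetyltransferases CBP and p300 at active promoters and enhancers, and most transcribed promoters carry both. Promoters with H3K4me3 but without H3K27ac are known at genes held in a silent or weakly used state, among them CpG-rich developmental genes that also carry the Polycomb mark H3K27me3. That mark was not among the targets. At P2 the mouse retina still holds dividing progenitors, and by P17 its cells are postmitotic. SOX8 and SOX9 belong to the same subgroup of SOX factors, and SOX9 is known from retinal progenitors and Müller glia.

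The starts of 7 genes show the range of promoter sequence at these regions. Tle1 and Pou3f2 were chosen for their SOX peaks, Sox11 for a peak that was much wider at P2, Grin1 and Hcn2 as neuronal genes without H3K4me3 at P2, and Msh6 and Rps4x as widely expressed genes. Each line gives the 250 bases before the RefSeq start (GRCm38.p6), 5′ to 3′ on the gene's strand, with CpG dinucleotides in capitals.
Tle1: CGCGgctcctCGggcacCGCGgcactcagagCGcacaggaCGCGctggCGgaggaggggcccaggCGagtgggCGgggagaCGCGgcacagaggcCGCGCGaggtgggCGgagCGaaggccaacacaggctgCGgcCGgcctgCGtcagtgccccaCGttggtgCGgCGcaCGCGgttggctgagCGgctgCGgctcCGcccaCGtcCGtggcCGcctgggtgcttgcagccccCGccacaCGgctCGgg
Pou3f2: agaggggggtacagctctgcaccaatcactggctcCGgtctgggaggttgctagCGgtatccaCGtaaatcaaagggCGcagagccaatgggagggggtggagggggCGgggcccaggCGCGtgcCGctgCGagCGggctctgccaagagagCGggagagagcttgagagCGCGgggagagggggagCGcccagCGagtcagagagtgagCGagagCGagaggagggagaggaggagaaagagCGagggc
Sox11: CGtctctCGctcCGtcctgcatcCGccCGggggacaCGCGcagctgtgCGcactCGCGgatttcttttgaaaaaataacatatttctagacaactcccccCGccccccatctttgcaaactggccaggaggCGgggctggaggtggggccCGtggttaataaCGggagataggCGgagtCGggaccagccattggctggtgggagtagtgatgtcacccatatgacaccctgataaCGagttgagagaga
Grin1: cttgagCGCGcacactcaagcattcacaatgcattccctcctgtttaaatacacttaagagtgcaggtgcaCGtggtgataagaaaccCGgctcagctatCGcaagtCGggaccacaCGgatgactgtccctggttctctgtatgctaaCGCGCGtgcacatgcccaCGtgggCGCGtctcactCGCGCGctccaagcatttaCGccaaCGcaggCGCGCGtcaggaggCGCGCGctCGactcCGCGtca
Hcn2: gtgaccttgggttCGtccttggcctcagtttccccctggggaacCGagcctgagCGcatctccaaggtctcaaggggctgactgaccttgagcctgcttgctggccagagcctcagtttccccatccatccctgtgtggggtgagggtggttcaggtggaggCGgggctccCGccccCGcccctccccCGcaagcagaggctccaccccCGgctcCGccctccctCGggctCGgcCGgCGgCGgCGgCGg
Msh6: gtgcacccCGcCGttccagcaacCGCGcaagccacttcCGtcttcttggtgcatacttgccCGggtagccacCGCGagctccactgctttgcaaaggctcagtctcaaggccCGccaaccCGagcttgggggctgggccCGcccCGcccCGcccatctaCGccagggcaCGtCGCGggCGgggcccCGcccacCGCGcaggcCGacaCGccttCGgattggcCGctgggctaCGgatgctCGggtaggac
Rps4x: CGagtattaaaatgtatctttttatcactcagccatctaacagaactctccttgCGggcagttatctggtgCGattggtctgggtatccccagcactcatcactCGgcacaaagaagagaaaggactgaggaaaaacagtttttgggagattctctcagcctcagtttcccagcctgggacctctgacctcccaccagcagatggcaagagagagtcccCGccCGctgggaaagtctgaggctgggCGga

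The stretches lie at chr4:72200894-72201143 (Tle1, minus strand), chr4:22488367-22488616 (Pou3f2, minus), chr12:27342719-27342968 (Sox11, minus), chr2:25319188-25319437 (Grin1, minus), chr10:79716384-79716633 (Hcn2, plus), chr17:87974800-87975049 (Msh6, plus) and chrX:102189392-102189641 (Rps4x, minus). The CpG count was 35 at Tle1, 18 at Pou3f2, 17 at Sox11, 27 at Grin1, 16 at Hcn2, 27 at Msh6 and 7 at Rps4x. Relative to the count that their C and G content gives, the ratio was lowest at Rps4x (0.414) and Hcn2 (0.519) and highest at Grin1 (1.26). All 3 of the developmental regulators shown, Tle1, Pou3f2 and Sox11, had ratios from 0.761 to 0.949.

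Across all RefSeq promoters of 300 bases (250 before and 50 after the start), the H3K4me3-only peaks held 791 and the peaks with H3K27ac 8822, and 11650 had no P17 H3K4me3. The median CpG ratio was 0.804 at H3K4me3-only peaks, 0.816 at peaks with H3K27ac and 0.265 at promoters without H3K4me3. A ratio of 0.6 or more was found in 80.5% of promoters at H3K4me3-only peaks and in 82.2% at peaks with H3K27ac, a difference of -1.63 percentage points (95% Newcombe interval -4.64 to 1.11) that did not exceed counting error. Within the H3K4me3-only peaks the share was 85.0% for 647 promoters whose peak had H3K4me3 at P2 and 60.4% for 144 whose peak did not. Both groups of peaks thus lay mostly at CpG-rich promoters, and the share was lower where the peak was not called at P2.

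Of 6 short motifs searched on both strands of these promoters, CCGGAAG, the core of sites for ETS-family factors, was found in 15.7% at H3K4me3-only peaks against 21.2% at peaks with H3K27ac and 11.6% of all 21263 promoters. The difference between both groups of peaks was -5.52 points (95% Newcombe interval -8.04 to -2.69). CACGTG, the E-box of basic helix-loop-helix factors, was found in 12.9% against 10.3%, a difference of 2.60 points (0.349 to 5.19), and in 7.84% of all promoters. For TTCCCGC (9.10% against 8.92%, all promoters 5.95%), CCAAT (38.9% against 38.3%, all 38.2%), ACAAT, the core of SOX sites (17.3% against 18.1%, all 27.7%), and TATAAA (6.83% against 5.41%, all 12.6%), the interval of the difference included 0. None of these motifs contains another, and CCAAT and ACAAT share the letters CAAT. Intervals here were not widened for the number of motifs.

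The regions were narrower than the peaks with H3K27ac. Their widths ran from 300 to 13887 bp with a median of 2997 bp (quartiles 2442 and 3713), and the other peaks ran from 1136 to 27972 bp with a median of 3788 bp (quartiles 3025 and 4810). Widths of 5000 bp or more were found at 67 H3K4me3-only peaks (7.14%) and 1903 others (21.9%), and widths under 2000 bp at 99 (10.5%) and 240 (2.76%). A wide peak is more likely to touch another by position alone, and the rule used overlap, so these widths are a description and carry no test.

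**Figure D1:**
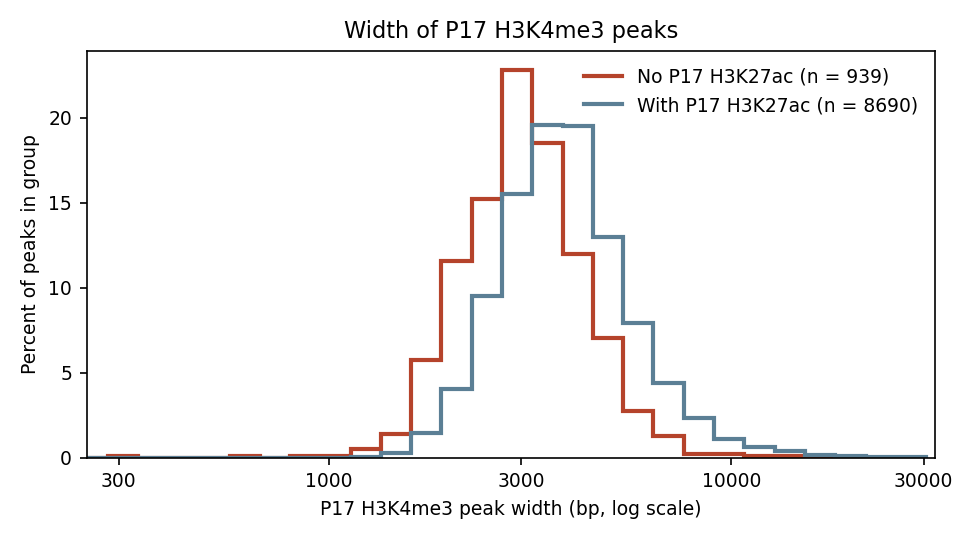
Percent of peaks in each group (vertical) by P17 H3K4me3 peak width in bp (horizontal, log scale), in bins of equal width on the log scale. The 939 peaks without P17 H3K27ac (red) peak to the left of the 8690 with it (blue), with medians of 2997 and 3788 bp.

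Most of the regions lay far from acetylation and not at its edge. The gap to the nearest P17 H3K27ac peak had a median of 40460 bp (quartiles 14120 and 111498) and reached 3631583 bp at Pcdh10, a protocadherin. A gap under 1000 bp was seen at 11 regions and under 5000 bp at 82 (8.73%), while 250 (26.6%) lay 100000 bp or more away. On the other side of the rule, the median peak with H3K27ac had 90.5% of its bases covered, 3048 were covered in full, and 2 had under 10% covered. Just inside the rule were a peak at chr2:156391291-156393047 with a gap of 42 bp and the peaks at Chrna7 (147 bp), Kat2a (159 bp), Nrarp (267 bp) and Jph1 (296 bp). Just outside it were Bhlhe23, where 178 bp were shared, Efhd2 (312 bp), Cdk6 (322 bp), Rell1 (388 bp) and Nacc2 (558 bp).

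Most of the regions sat at genes, as did the peaks with H3K27ac. A protein-coding gene began or ended inside 790 (84.1%, against 83.8% of the others), an end of another kind of gene only inside 49 (5.22% against 4.21%), 93 (9.90% against 10.8%) lay within a gene away from its ends, and 7 (0.745% against 1.19%) lay between genes. With the stricter measure of a gene end within 1000 bp of the peak centre, met by 65.3% of all P17 H3K4me3 peaks, 632 H3K4me3-only peaks (67.3%) and 5654 others (65.1%) qualified. The difference of 2.24 points (95% Newcombe interval -0.981 to 5.34) did not exceed counting error. With peaks compared within 4 fixed width classes, of which the widest began at 2000 bp, it was 1.01 points (-2.14 to 4.15). Within 5 classes of equal size, added after seeing the data, its sign turned to -7.04 (-10.0 to -4.07), and with starts only to -2.35 (-5.68 to 0.885).

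A listed start of a protein-coding gene lay inside 653 of the regions (69.5%) and 6598 of the others (75.9%), whose peaks were wider. Of the 653, 42 (6.43%) held starts on both strands, against 808 of the 6598 (12.2%). The X chromosome held 52 of the regions: 18.8% of its 277 P17 H3K4me3 peaks were H3K4me3-only, against 887 of 9352 (9.48%) on the autosomes. That difference followed from the rule's own lists and is given without a test. The X chromosome held 1.92% of P17 H3K27ac peaks and 2.88% of P17 H3K4me3 peaks. Among autosomes the share ran from 6.17% (chromosome 11) to 13.4% (chromosome 6).

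Most patterning regulators examined had no P17 H3K4me3 at an end, and of the 9 with it 4 were H3K4me3-only. Of the sets of housekeeping machinery examined, all but the respiratory chain had genes at the regions. RefSeq lists a start for 17492 protein-coding genes, of which 8053 had P17 H3K4me3 at a start. In 688 of these (8.54%) every such peak lacked H3K27ac, in 7357 none did, and 8 had both kinds. The counts below are out of genes with H3K4me3 at a start. Since the rule itself used these 2 lists, they are set beside the 8.54% as a description.

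Of 109 patterning regulators with a listed start (homeobox, Pax, Tbx and similar families), 105 had no P17 H3K4me3 at a listed start, and at the other 4 the peak there also met H3K27ac. Genes without a listed start were looked up by their ends, for which the table gives no strand. By ends, 9 of all 170 genes of the list carried H3K4me3, and 4 of the 9 only in H3K4me3-only peaks, beside 852 of 9499 protein-coding genes (8.97%). Among them, Zic2 and Tbx3 have no listed start, and the peak at Nr2f2 (3650 bp) covered the end away from its listed start. Of the genes for secreted morphogens, 1 of 5 was H3K4me3-only: Inhbb, which encodes the beta-B subunit of activins and inhibins, with a peak of 4821 bp at P17 and 6901 bp at P2.

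No photoreceptor gene of the lists used was found at the regions, but these lists were short. All 23 rod genes with a listed start carried H3K4me3, and all 23 also H3K27ac. The same held for 8 of 8 bipolar cell genes and 2 of 2 cone genes with H3K4me3 at a listed start. By gene ends, 2 of 11 bipolar cell genes were H3K4me3-only, Irx5 and Grik1. Of 10 amacrine and horizontal cell genes with H3K4me3, 1 was H3K4me3-only: Gad1, which encodes the GABA-synthesising enzyme GAD67, at chr2:70560956-70567932 (6977 bp). By gene ends, Nefm (5329 bp) and Stmn2 (3510 bp), known from ganglion cells and other neurons with long axons, were 2 of 4 ganglion cell genes with H3K4me3. Markers of cells other than retinal neurons had little H3K4me3 of any kind at their starts: 0 of 9 microglial, 0 of 10 pigment epithelium, 0 of 7 astrocyte and 1 of 9 endothelial genes. This was not particular to them, since lists of retinal neurons ran from 1 of 12 ganglion cell and 2 of 11 cone genes to all 23 rod genes. In whole retina a mark in few cells and a weak mark in many cannot be told apart.

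Progenitor and glial regulators were found among the regions in small number. Of 10 retinal progenitor genes with H3K4me3, 2 were H3K4me3-only: Sox11, a SoxC factor of immature neurons, and Lhx2, a LIM-homeobox factor required for eye formation. At Lhx2 the only P17 H3K4me3 peak (chr2:38349864-38355715, 5852 bp) covered the internal of 2 listed starts, and Lhx2 was also the 1 of 4 Müller glia genes found there. By gene ends, Hes1, a Notch effector, and Nfib, a nuclear factor I gene active in late progenitors and Müller glia, were also H3K4me3-only, with peaks of 4630 and 7288 bp. The Hes1 peak lay 2096 bp from the nearest H3K27ac peak and the Nfib peak 195198 bp.

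Among the sets in this paragraph, only the respiratory chain had a Wilson interval (0 to 5.83%) that left out the overall share of 8.54%. The intervals of the other sets included that share, such as 0.310 to 9.29% for the cytosolic ribosome and 4.73 to 23.0% for DNA repair. The counts of those other sets are therefore not read as differences between sets. No gene of the respiratory chain (0 of 62) was H3K4me3-only, and 1 of 57 cytosolic ribosomal protein genes was: Rps4x, on the X chromosome, with a 2059 bp peak. The counts were 4 of 64 for the mitochondrial ribosome (Mrpl50, Mrpl3, Mrps22 and Mrpl35), 3 of 28 for the proteasome (Psma5, Psmd9 and Psma4), 3 of 33 for RNA polymerase II and its general factors, 1 of 26 for aminoacyl-tRNA synthetases (Mars2) and 1 of 49 for ciliary genes (Kif17, a kinesin motor). DNA repair genes gave 5 of 46, among them the mismatch repair gene Msh6 (3714 bp), the checkpoint kinase Chek1 (2683 bp) and the uracil glycosylase Ung (2392 bp). Cell cycle genes gave 3 of 13, with Rrm1, a subunit of ribonucleotide reductase (2281 bp), and Knl1, a kinetochore protein (2073 bp). By gene ends, Foxm1, a regulator of mitotic genes, joined them.

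Zinc finger genes of the Zfp series, many of them KRAB repressors, gave 23 of 231, with a median peak width of 2477 bp, and in 9 the peak had no H3K4me3 at P2. Solute carriers gave 13 of 108 and germline genes 2 of 7 (Ddx25 and Hspa2). Potassium channel genes gave 5 of 16, with a median width of 4146 bp: Kcnd3 (4288 bp) and Kcnh8 (3073 bp) had H3K4me3 at P2, and Kcna4 (3670 bp) and Kcnc4 (4146 bp) did not. Receptors for glutamate, GABA and glycine gave 2 of 10, Grin1 and Grm8 (5150 bp). By ends, Grik1 (5078 bp) and Grin2b (6693 bp) were also H3K4me3-only. Of 1106 olfactory receptor genes none had P17 H3K4me3 at an end.

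A further 13 gene families were looked up because members of them stood out among the regions, so their counts support nothing beyond themselves. Eph receptors and ephrins, which guide axons by cell contact, gave 7 of 13, leucine-rich repeat adhesion proteins of the synapse 8 of 15, unclustered protocadherins 4 of 7, and calcium, sodium and HCN channels 7 of 16. Nucleolar factors of ribosome assembly, chosen in the same way, gave 13 of 48, with a median width of 2423 bp. Of the rest, eukaryotic initiation factors had the lowest share (2 of 40) and cadherins with contactins and their partners the highest (4 of 9). The adhesion genes had wide peaks, with a median of 5873 bp for the leucine-rich repeat genes and 8764 bp for the protocadherins. The nucleolar genes, among them Noc4l (4190 bp) and Wdr43 (3904 bp), had mostly narrow ones.

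**Figure D2:**
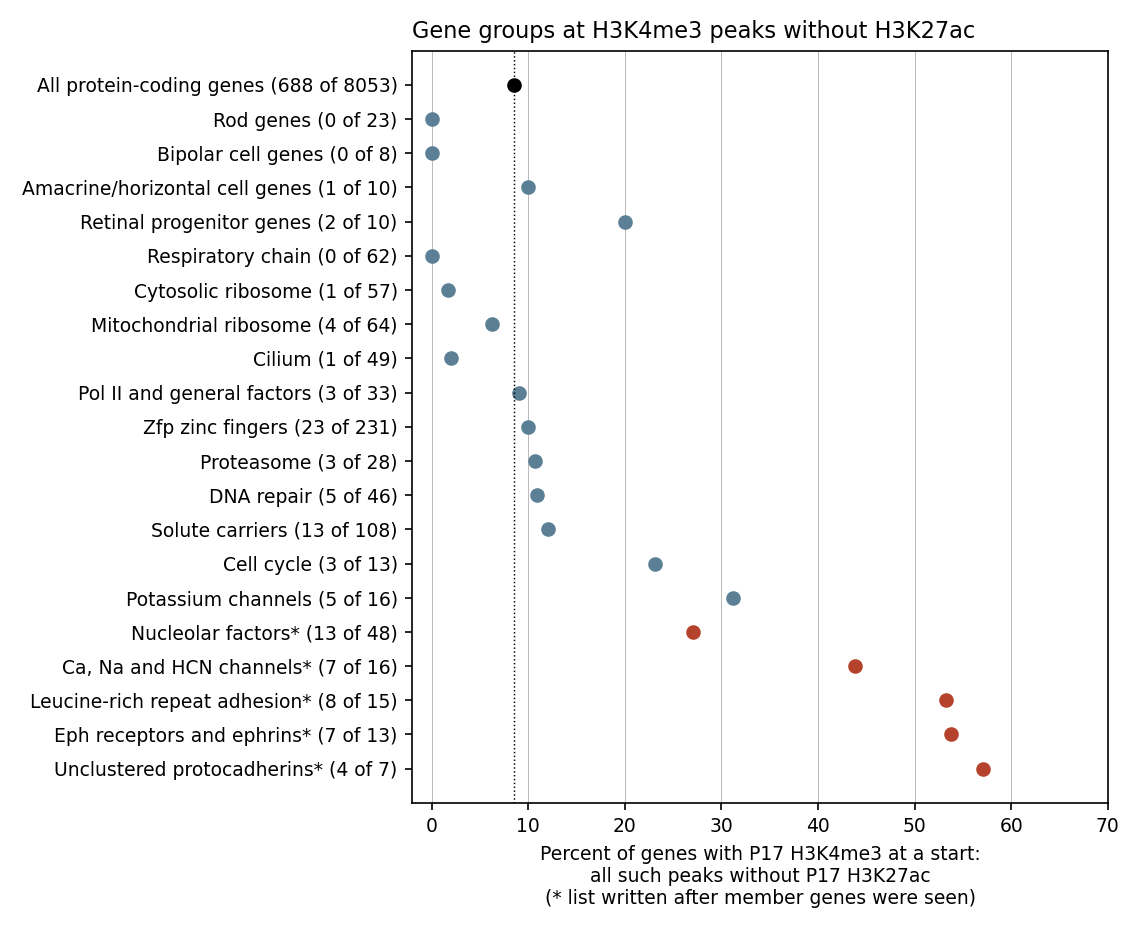
For each gene group, the percent (horizontal) of genes with P17 H3K4me3 at a start at which every such peak lacked P17 H3K27ac, with the counts in brackets; the dotted line marks the 8.54% of all such genes. Red groups were written after the genes at the regions had been seen; rod, bipolar cell and respiratory chain genes sit at 0.

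Genes at the regions were longer than those at other peaks. The median RefSeq length was 34313 bp for the 688 genes, 24123 bp for the 7357 genes at peaks with H3K27ac and 10819 bp for the 9439 genes without P17 H3K4me3. Lengths of 100000 bp or more were reached by 24.9%, 12.8% and 7.98% of them. Among the 688, the 120 whose peaks had no H3K4me3 at P2 had a median length of 48910 bp and 32.5% reached that length, against 33326 bp and 23.2% for the other 568.

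The widest of all the regions, chr11:3180557-3194443 (13887 bp), lay within a gene and met no peak of any other list. No set of regions known for high signal in many assays was removed here, and whether this is such a region was not tested. Next came Pcdh19 at chrX:133680929-133692380 (11452 bp), which was 8805 bp wide at P2, and Tle1 at chr4:72195611-72205081 (9471 bp), which was 8565 bp wide at P2. Tle1 encodes a Groucho corepressor. Pcdh17 (9128 bp), Flrt2 (8892 bp), Pcdh10 (8400 bp), Nfib (7288 bp), Bcl11a (7279 bp), Fat4 (7111 bp) and Usp7, a deubiquitinase (7069 bp), completed the 10 widest. Of these genes, Tle1 and Nfib were named by the rule fixed for the text, and the others were chosen after their widths were seen.

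Most of the regions already carried H3K4me3 at P2, though less often than the peaks with H3K27ac. A P2 H3K4me3 peak overlapped 757 of 939 (80.6%) and 7482 of 8690 others (86.1%), beside 85.6% of all P17 H3K4me3 peaks. The difference was -5.48 points (95% Newcombe interval -8.23 to -2.97). Within the 4 fixed width classes it was -3.46 points (-6.11 to -0.802), and within the 5 classes of equal size -2.08 (-4.77 to 0.612), which did not exceed counting error. If only the wider 50% of P17 H3K27ac peaks are taken to remove a peak, 4370 peaks become H3K4me3-only and the difference is 0.0349 points. The gap lay in the wide peaks: in the widest class (5036 to 27972 bp) 68.3% of 63 H3K4me3-only peaks had H3K4me3 at P2 against 86.7% of 1863 others, while in the narrowest class the shares were 75.3% and 73.6%.

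Acetylation had been present at most of the regions at P2. A P2 H3K27ac peak overlapped 831 (88.5%) and 8503 of the others (97.8%), beside 96.9% of all P17 H3K4me3 peaks, a difference of -9.35 points (95% Newcombe interval -11.6 to -7.44). The P2 H3K27ac list is far longer than the P17 list, with 287845 peaks of median width 1166 bp against 29909 of 3268 bp, so its peaks are easily met and a loss between ages cannot be read from the overlap. Only 167 of the 9134 P2 H3K4me3 peaks (1.83%) lacked P2 H3K27ac. Against the 29909 widest P2 peaks, those of 3265 bp and more, 115 H3K4me3-only peaks (12.2%) and 2308 others (26.6%) overlapped, and the difference was -14.3 points.

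Combining the marks, 706 of the regions (75.2%) had both at P2, 51 (5.43%) H3K4me3 only, 125 (13.3%) H3K27ac only and 57 (6.07%) neither. For the other peaks the shares were 85.3%, 0.829%, 12.6% and 1.32%. Psmd9, a proteasome assembly chaperone, had H3K4me3 without H3K27ac at both ages, with peaks of 2169 bp at P2 and 2921 bp at P17. Regions with neither mark at P2 included Lrfn5 and Grin2b, a synaptic adhesion gene and an NMDA receptor subunit, with peaks of 7026 and 6693 bp at P17.

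**Figure D3:**
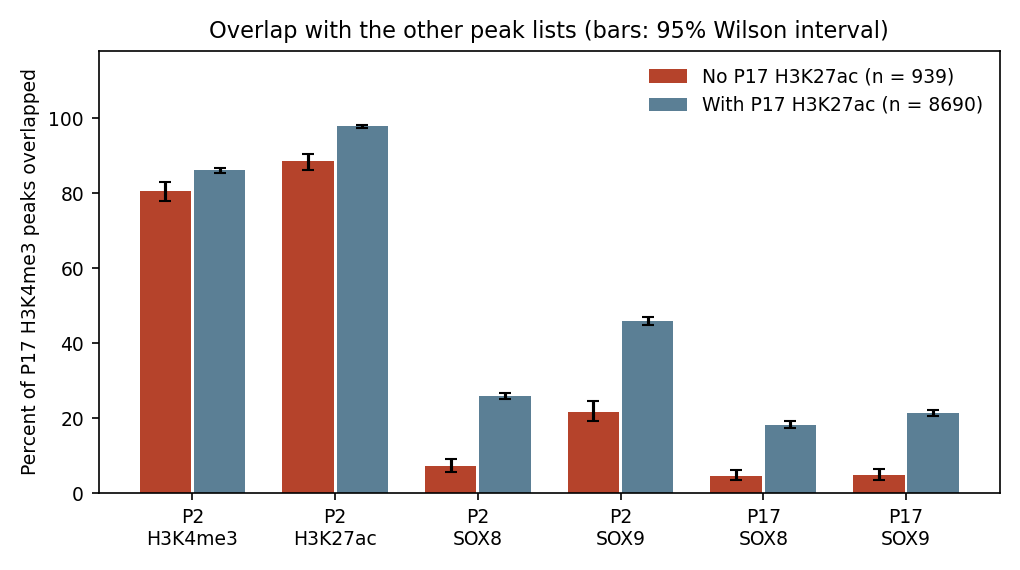
Percent of P17 H3K4me3 peaks (vertical) that overlap a peak of each other list by at least 1 bp, for peaks without (red, n = 939) and with (blue, n = 8690) P17 H3K27ac; error bars are 95% Wilson intervals. The red bars are lower in all 6 lists, from 80.6% against 86.1% for P2 H3K4me3 to 4.58% against 18.3% for P17 SOX8.

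Where both ages had H3K4me3, the peak was more often narrower at P17 at the regions than elsewhere. The P17 width divided by the width of the widest P2 peak had a median of 0.900 (quartiles 0.739 and 1.07) over 757 regions, of which 488 (64.5%) were narrower at P17. Over 7482 other peaks the median ratio was 1.06 and 40.1% were narrower. Whether a P2 peak was split into several P17 peaks, which would lower the ratio, was not tested. Widths come from separate lists whose thresholds are not given in the sources used here. The rule also favours narrow P17 peaks, and the P17 width is the numerator, so the ratio is a description.

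The 115 regions at the widest P2 H3K27ac peaks, a set looked at after the data had been seen, included regulators of progenitors. At P2, 113 of them had H3K4me3, and 95 (84.1%) were narrower at P17, with a median ratio of 0.764. Over the 644 regions with P2 H3K4me3 away from those wide peaks 61.0% were narrower (median ratio 0.930), and over 2016 peaks that kept H3K27ac at P17 and met a wide P2 H3K27ac peak 44.8% were (median ratio 1.03). The low ratio was seen at regions with wide P2 acetylation and no P17 acetylation, and not at those with P17 acetylation. Since the rule itself favours narrow P17 peaks, this contrast is a description and carries no test.

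Several regulators had ratios far below the median of the 115, and they were picked after their values were seen. The low end also held H4c12, a histone gene (0.331), and Nt5dc2 (0.364). Other regulators lay above the median, such as Id4 (0.818), Etv1 (0.947) and Cux2 (1.10). How many regulators narrowed was not counted. The Lhx2 region measured 13844 bp in H3K4me3 and 14297 bp in H3K27ac at P2, and 5852 bp in H3K4me3 at P17. At Zic2, a zinc finger factor known from ganglion cells that project to the same side of the brain, H3K4me3 measured 13049 bp at P2 and 4426 bp at P17, and the P2 H3K27ac peak 8490 bp. At Nrarp, a feedback inhibitor of Notch signalling, H3K4me3 measured 11187 and 3527 bp and P2 H3K27ac 22699 bp. Nrarp lay 267 bp from P17 H3K27ac, close to the edge of the rule.

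Sox11 (chr12:27341070-27344066) had H3K4me3 of 8552 bp at P2 and 2997 bp at P17, and a P2 H3K27ac peak of 4015 bp. Its nearest P17 H3K27ac peak was 870587 bp away. Irx5, an Iroquois homeobox gene of bipolar cells, had H3K4me3 of 11904 and 5979 bp, and Pou3f2, a POU factor of neural precursors, of 9100 and 6253 bp. Nfib, at 7336 and 7288 bp, and Fat4, an atypical cadherin, at 6897 and 7111 bp, did not narrow.

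**Figure D4:**
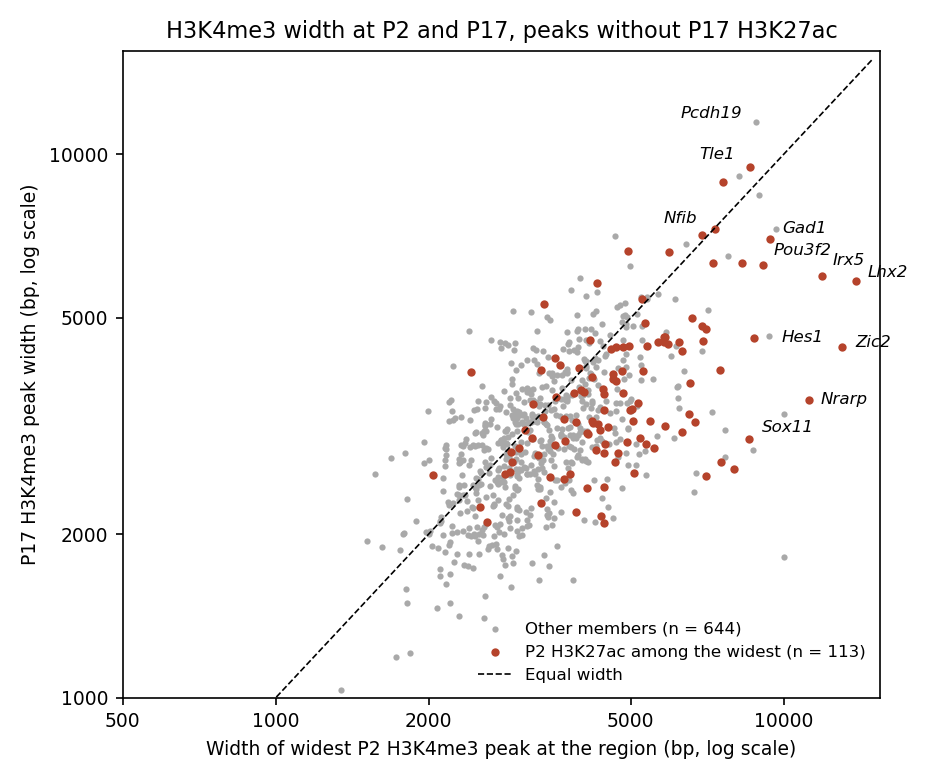
P17 H3K4me3 peak width (vertical, bp, log scale) against the width of the widest P2 H3K4me3 peak at the same region (horizontal, bp, log scale) for the 757 peaks without P17 H3K27ac that had H3K4me3 at P2. Points below the dashed line of equal width are narrower at P17 (488 of 757); red points, at the widest P2 H3K27ac peaks, lie below it in 95 of 113 cases, with Lhx2, Zic2, Irx5 and Nrarp far to the right.

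The 182 regions without H3K4me3 at P2 included genes of several kinds, among them 9 Zfp zinc finger genes, Taf1, Fbn1 and Ocln. They also included genes of mature neurons, whose share was not counted. Some of the wide ones are named here after their values were seen: Lrrtm4 (6869 bp), Lrrtm3 (6163 bp) and Lrfn5 (7026 bp), leucine-rich repeat proteins of the synapse; Cdh8 (6061 bp), a cadherin; and Kcna1 (5413 bp), a voltage-gated potassium channel. Genes named by the fixed rule included Grin1, the obligatory NMDA receptor subunit (3230 bp), and Hcn2, a pacemaker channel (3811 bp). Cntnap2, a contactin-associated protein (3463 bp), and Scn2b, a sodium channel subunit (2390 bp), were others. The same rule also named Cntn4 (4404 bp), Zfp950 (2567 bp), the nucleolar factor Utp20 (2456 bp), the DNA repair gene Rad50 (1850 bp) and Kif17 (1599 bp). At Hcn2 neither mark was called at P2. At Grin1 and Cntnap2 the P2 H3K27ac peaks measured 863 and 1241 bp.

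SOX8 and SOX9 peaks were less common at the regions in all 4 lists. At P2, SOX8 overlapped 68 regions (7.24%) and 25.9% of the other peaks, beside 24.1% of all P17 H3K4me3 peaks, and the difference was -18.6 points (95% Newcombe interval -20.4 to -16.6). P2 SOX9 overlapped 204 (21.7%) against 45.9%, beside 43.5% of all, a difference of -24.2 points (-26.9 to -21.2). At P17, SOX8 overlapped 43 (4.58%) against 18.3%, beside 17% of all (-13.8 points, -15.2 to -12.0). P17 SOX9 overlapped 45 (4.79%) against 21.4%, beside 19.8% of all (-16.6 points, -18.1 to -14.9).

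The size of the difference depended on how width was treated. Within the 4 fixed width classes it was -17.1 points for P2 SOX8, -22.2 for P2 SOX9, -12.6 for P17 SOX8 and -15.4 for P17 SOX9. Within the 5 classes of equal size, added after seeing the data, the differences were -11.0 points for P2 SOX8, -14.8 for P2 SOX9, -6.68 for P17 SOX8 and -8.41 for P17 SOX9, each interval still below 0. In the widest class P17 SOX9 met 20.6% of the regions and 48.5% of the others, and in the narrowest 1.88% and 5.08%. Widths and SOX peaks come from bulk lists, and open chromatin, which was not measured in this series, was not tested.

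**Figure D5:**
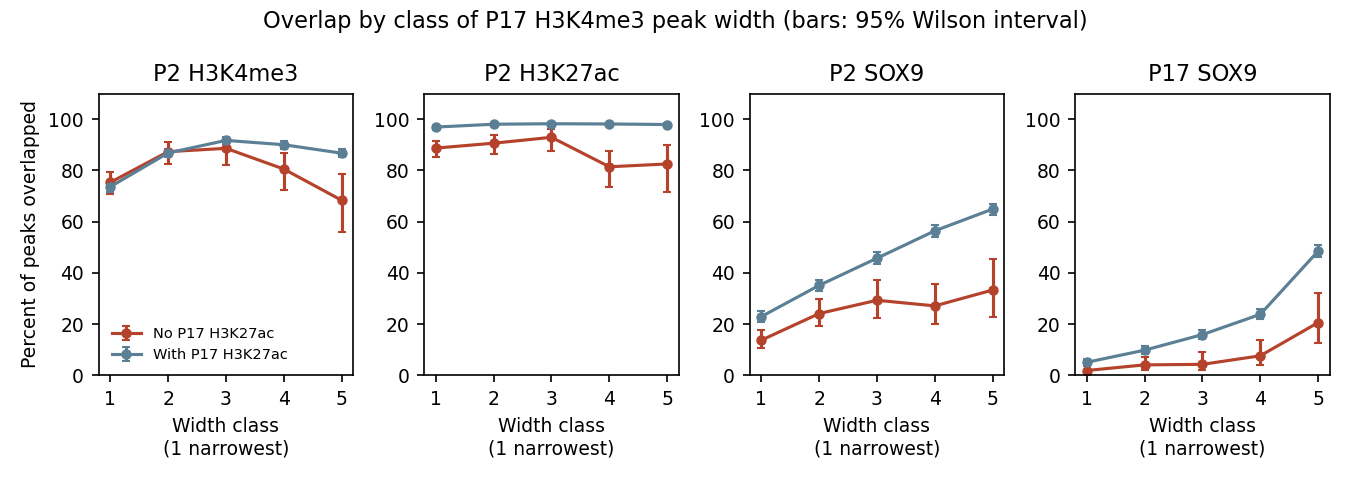
Percent of P17 H3K4me3 peaks overlapped by P2 H3K4me3, P2 H3K27ac, P2 SOX9 and P17 SOX9 peaks (vertical) in each of 5 classes of P17 H3K4me3 width, from 1 (300 to 2788 bp) to 5 (5036 to 27972 bp), for peaks without (red) and with (blue) P17 H3K27ac; error bars are 95% Wilson intervals. The lines for P2 H3K4me3 part only in the wide classes, and those for SOX9 are apart in every class.

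A SOX peak of any kind lay at 240 regions (25.6%) and at 52.1% of the others. It was called at P2 only at 169 regions, at P17 only at 31 and at both ages at 40 (4.26%, against 21.6% of the others). SOX8 came with SOX9 at 63 of the 68 regions with P2 SOX8 (92.6%, others 95.7%). At P17 this was so at 17 of 43 (39.5%, others 71.5%). Of the regions with H3K4me3 at P2, 227 of 757 (30.0%) had a SOX peak, against 13 of 182 (7.14%) of those without, where P2 SOX8 and P2 SOX9 each met 1. The other peaks also differed in this way, with 4239 of 7482 (56.7%) against 289 of 1208 (23.9%).

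At the 115 regions with the widest P2 acetylation, SOX peaks of both ages were less frequent than at peaks with wide P2 acetylation and P17 H3K27ac. P2 SOX9 lay at 63 (54.8%), against 64.0% of the 2308 peaks that met a wide P2 H3K27ac peak and had P17 H3K27ac. P17 SOX9 lay at 13 (11.3%), against 40.9% of those 2308. For SOX8 the shares were 28.7% against 40.5% at P2 and 8.70% against 34.7% at P17. Whether the change between ages itself differed was not tested.

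All 4 SOX lists met at 10 regions (1.06%), against 10.3% of the others. These 10 lay at Tle1, Irx5, Adgrb2, Fzd8, Bahd1, Pim1, Hspa2, Shb, Foxo6 and the shared promoter of Alkbh2 and Ung. At Tle1 the SOX peaks measured 3656 bp (P2 SOX8), 3806 bp (P2 SOX9), 3238 bp (P17 SOX8) and 5146 bp (P17 SOX9), all narrower than the H3K4me3 peak. At Irx5 the P2 SOX9 peak was 12951 bp wide and the P17 SOX9 peak 5111 bp. Pou3f2 had P2 SOX8 (2858 bp), P2 SOX9 (5104 bp) and P17 SOX9 (5071 bp).

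Lhx2 had the same 3 factors and ages, with a P17 SOX9 peak of 8735 bp that was wider than its H3K4me3 peak. Sox11, Zic2, Hes1, Nfib and Efna5, an ephrin that guides retinal axons, had SOX8 and SOX9 at P2 only. At Efna5 (chr17:62878465-62884778) these peaks measured 3949 and 5642 bp. The protocadherin genes Pcdh19 and Pcdh17 had no SOX peak in any list, and neither had the neuronal genes Lrrtm4, Lrrtm3, Cdh8, Grin1 and Hcn2.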

How the data were processed

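CUT&RUN libraries of P2 and P17 retina were grouped by the age and antibody in their labels. Per the submitters' processing notes, Bowtie2, SEACR and build GRCm38 were used; versions, the peak threshold, the use of IgG and how libraries were combined are not given in the sources used here. The 8 lists give chromosome, start and end, and the deposited score was 0 for every peak. No peak was filtered or removed by region here. Positions are counted from 1.

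Overlap of 1 bp or more was computed with Python 3.11.15, pandas 2.3.3 and numpy 2.4.6. Shares have 95% Wilson intervals and differences 95% Newcombe intervals, which were tested on simulated data. An interval that leaves out 0 is called past counting error. No p-value was computed. Gene ends, starts and promoters came from RefSeq tables of GRCm38.p6, where 17492 of 21887 protein-coding genes have a promoter entry and chromosome 18 has none.

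Members, gene lists and tests were chosen with earlier results of these data known. Genes were named if an end lay within 1000 bp of a peak's centre and they were on a list (at most 8 per list, widest peaks first), at the 10 widest peaks, at the 10 widest with a SOX peak, or at the 5 nearest either side of the rule. Other genes named in the text were chosen after their values were seen. The other family lists and the comparison in 5 width classes were added after seeing the data. Alternatives changed the overlap, peak widths, lists and chromosomes.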

Additional observations from a re-analysis of the deposited data

How the results depend on the processing

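No paired analysis was possible because the peak lists name no replicate, and for the same reason no replicate could be left out. Of 70 alternatives to the 7 differences in share, 65 kept both the direction and the side of 0. Some of them changed few peaks and could move the differences little. A least width of 500 bp left 938 regions, and a least gap of 1000 bp to P17 H3K27ac left 928. If only the wider 50% of the P17 H3K27ac list removed a peak, there were 4370 H3K4me3-only peaks in place of 939, the P2 H3K4me3 difference was 0.0349 points, and that at gene ends was 21.8. Within 5 width classes, a comparison chosen after seeing the data, the P2 H3K4me3 difference was -2.08 points and that at gene ends -7.04, while the 4 fixed classes gave -3.46 (-6.11 to -0.802) and 1.01 (-2.14 to 4.15). With transcription starts only, the gene end difference was -2.35 points. The cause was not tested. The 5 differences in P2 H3K27ac, SOX8 and SOX9 stayed below 0 in every alternative, from -2.98 to -14.3 points for P2 H3K27ac, -11.0 to -20.3 for P2 SOX8, -14.8 to -25.7 for P2 SOX9, -6.68 to -19.1 for P17 SOX8 and -8.41 to -23.5 for P17 SOX9. Read depth is unknown for all lists, and a region without a called P17 H3K27ac peak may still carry the mark below the threshold of the list.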

Other observations

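Between genes, 2 of the regions on chromosome 2 were the narrowest of all: chr2:98667033-98667332 (300 bp) and chr2:98662499-98663087 (589 bp). Both had H3K4me3 and not H3K27ac at P2 as well. Whether they belong to regions of high signal in many assays was not tested.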
